A study of Mus musculus with 12 samples.

Results

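A1 is a variant of the drug-delivery molecule Accum, made of cholic acid linked to a nuclear localization signal of hnRNPA1. The Rab GTPases of primary mouse bone marrow mesenchymal stromal cells (MSCs) were followed after exposure to A1, with and without ovalbumin (OVA). The members were the protein-coding genes whose symbol is Rab, a number and at most 1 closing letter. They were 59 of the 21974 protein-coding genes and of the 55487 rows of the count table, and 45 of them had enough counts to be tested among 11314 genes. All cells were wild type, of the C57BL/6 strain, and came in 3 groups of 4 poly(A) RNA-seq libraries. The groups were untreated MSCs, MSCs given 50 μM A1 for 6 h (A1), and MSCs given 50 μM A1 with 1 mg/mL chicken OVA for 6 h (A1-OVA). No group received OVA without A1, and the labels do not say whether the 4 libraries of a group came from separate cultures or animals, so each p-value measures only the spread between these libraries. The libraries held 13702348 to 16881995 counts.

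Of 9 stromal markers, Col1a1, Itgb1, Pdgfrb, Pdgfra and Cd44 were abundant, and the list summed to 5320 to 5910 CPM (counts-per-million of the scaled library) in untreated MSCs, 6230 to 6680 with A1 and 6260 to 6410 with A1-OVA. Single markers moved in both directions: with A1, Cd44 rose to 262% and Itgb1 to 153% of the untreated level, and Pdgfra fell to 50.4% and Ly6a to 66.4% (adjusted p = 8.77e-08 or less). The defining markers Thy1 and Nt5e were close to 0, at no more than 17 and 14 counts in any library. Hematopoietic markers summed to 9.41 to 10.5 CPM in untreated MSCs, 12 to 14.7 with A1 and 10.7 to 13.1 with A1-OVA, mostly from Cd14, while Ptprc reached at most 4 counts and Cd3e had none. Endothelial markers summed to less than 1 CPM in each library. The part of these markers in the Rab results was not tested. In bulk RNA, fewer cells of a type and less RNA per cell cannot be told apart.

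Rab proteins are small GTPases of the Ras superfamily that mark the membranes a vesicle leaves, travels on and fuses with. Each carries lipid anchors added by a prenyltransferase with an escort protein, is loaded with GTP on its membrane by an exchange factor, recruits effectors such as tethers and motors, and is switched off by a GTPase-activating protein before a dissociation inhibitor lifts it from the membrane. Rab5 proteins act on early endosomes, Rab7 on late endosomes and lysosomes, Rab4 and Rab11 proteins on recycling routes, Rab1, Rab2 and Rab6 proteins at the endoplasmic reticulum (ER) and Golgi, and Rab3 and Rab27 proteins at secretory vesicles, so an internalized antigen such as OVA passes through compartments that carry several of them.

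The Rab genes fell more often than they rose, and the largest changes lay in a few members. With A1, 8 Rab genes rose, 19 fell and 18 did not pass the edgeR test at an adjusted p of 0.05, while 31.7% of all tested genes rose and 31.1% fell. The differentially expressed genes (DEGs), which also changed by at least 0.5 on the log2 scale, were 9 Rab genes. Rab31 and Rab6b were higher, and Rab40b, Rab32, Rab36, Rab9, Rab3d, Rab13 and Rab3a were lower. Of all tested genes, 9.41% were higher DEGs and 11.6% lower DEGs. The 9 made up 20% of the 45 Rab genes, against 21% of all tested genes. The 2 groups did not overlap for 24 Rab genes, where 54.4% of all tested genes showed no overlap. At a log2 change of at least 1, 4 Rab genes were left with A1, beside 6.58% of all tested genes. The median log2 fold change of the 45 was −0.11, beside −0.002 over all tested genes.

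With A1-OVA, 7 Rab genes rose, 17 fell and 21 did not pass against untreated MSCs, with 29.7% of all tested genes higher and 27.9% lower. The DEGs were 6 Rab genes, with Rab6b higher and Rab32, Rab36, Rab40b, Rab9 and Rab13 lower. Higher DEGs were 8.92% and lower DEGs 8.79% of all tested genes. At a log2 change of at least 1 there were 3 Rab genes, beside 5.21% of all tested genes. With upper-quartile scaling 5 Rab genes rose and 22 fell. This scaling also moved the median log2 fold change of all tested genes, from 0.0036 to −0.019. For 22 Rab genes the groups did not overlap, against 49.4% of all tested genes. Both comparisons use the same 4 untreated libraries, so the values are given side by side and are not independent. The Rab genes that passed were 60% with A1 and 53.3% with A1-OVA, close to the 62.7% and 57.6% of all tested genes.

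**Figure D1:**
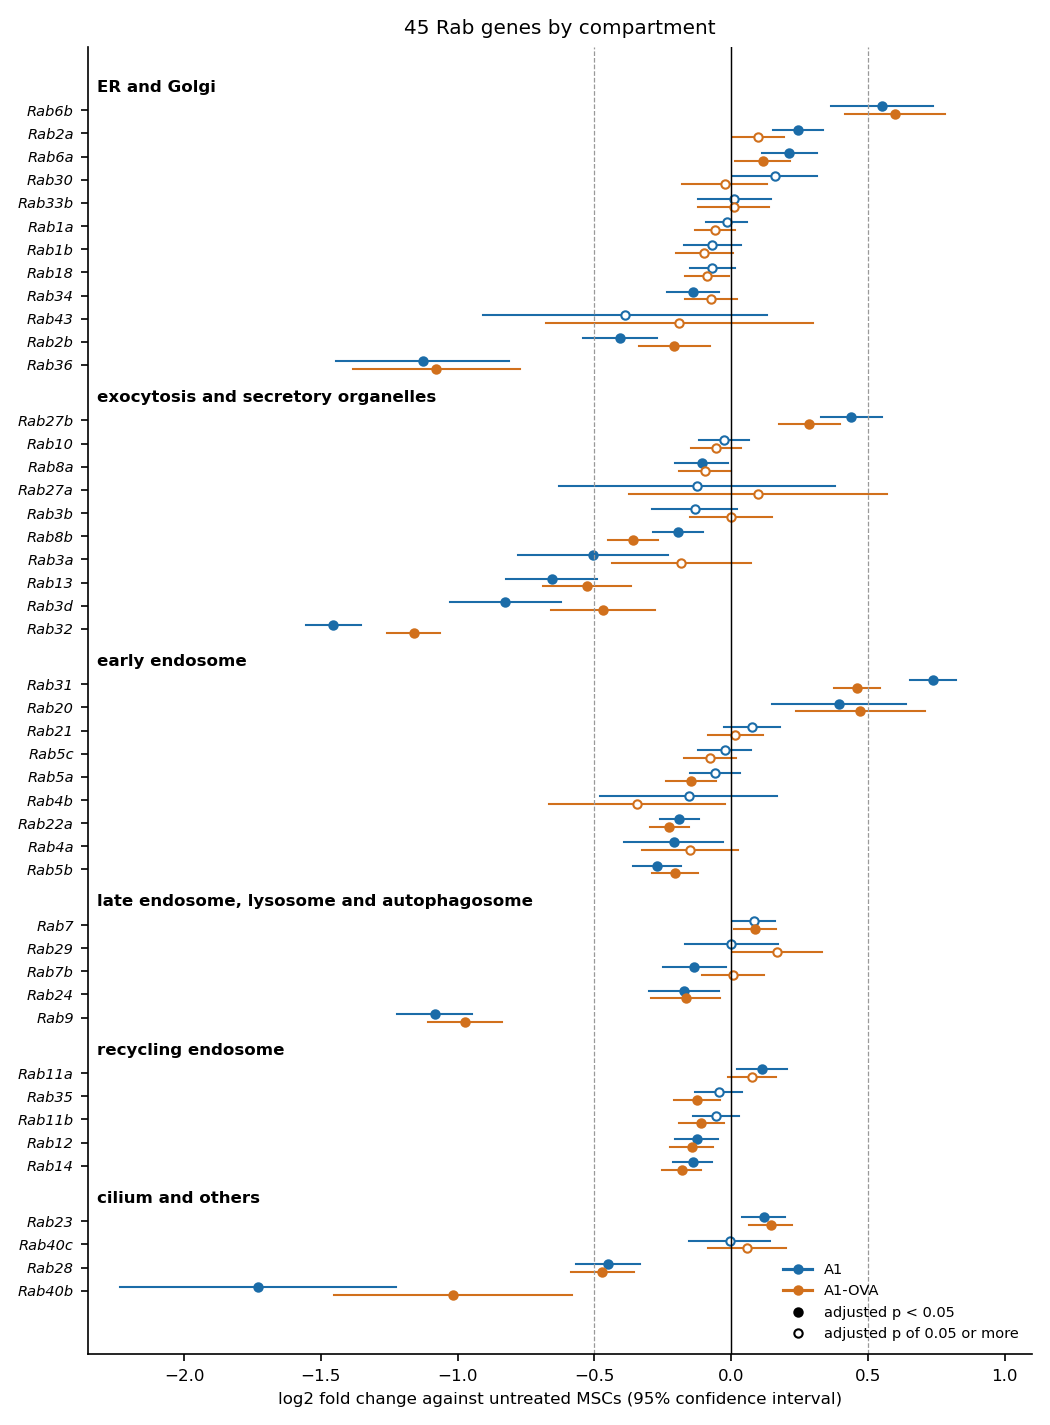
Log2 fold change against untreated MSCs of the 45 tested Rab genes, grouped by compartment, for A1 (blue) and A1-OVA (orange), with bars for the 95% confidence interval and filled points for an adjusted p below 0.05. The dashed lines mark 0.5 in either direction; Rab40b, Rab32, Rab36 and Rab9 lie farthest to the left and Rab31 farthest to the right.

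Against A1 alone, A1-OVA left most Rab genes where they were within the error. Rab32 and Rab3d were higher, Rab31, Rab8b and Rab2a were lower, and 40 did not pass. Of all tested genes, 6.05% were higher and 6.81% lower. No Rab gene was a DEG by edgeR, and none by DESeq2, while higher DEGs were 0.769% and lower DEGs 0.433% of all tested genes. At an unadjusted p below 0.05 there were 12 of 45 Rab genes, where 27.4% of all tested genes passed. The 2 treated groups did not overlap for 7 Rab genes, with 18.1% of all tested genes showing no overlap. The 2 higher calls became 1 without A1 replicate 2, A1 replicate 3, A1-OVA replicate 1 or A1-OVA replicate 2, and became 4 without A1-OVA replicate 3, which also left 1 lower call.

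The RNA of the whole family barely moved. Summed over the 59 genes it was 4300 to 4480 CPM in untreated MSCs, 4240 to 4430 with A1 and 4060 to 4320 with A1-OVA. Within the sum, the genes of exocytosis and secretory organelles went from 700 to 742 CPM in untreated MSCs to 594 to 624 with A1 and 573 to 633 with A1-OVA. The early endosome genes went from 806 to 843 CPM to 887 to 939 with A1, and to 809 to 869 with A1-OVA. Rab31 carried the early endosome rise: without it the sum was 644 to 669 CPM in untreated MSCs, 616 to 652 with A1 and 588 to 629 with A1-OVA. The ER and Golgi genes, the largest sum, went from 1340 to 1400 CPM to 1390 to 1460 with A1 and 1320 to 1410 with A1-OVA. The cilium and other group went from 167 to 174 CPM to 155 to 165 and 157 to 169. The late endosome group went from 594 to 617 CPM to 539 to 567 and 536 to 592. The recycling group went from 685 to 724 CPM to 660 to 681 and 637 to 663. The secretory, late endosome and recycling sums thus lay below the untreated range in both treated groups. Single genes carried the late endosome fall and much of the secretory one. Mean Rab9 went from 132 CPM to 62.4 with A1 and 67.3 with A1-OVA. The mean late endosome sum dropped less, from 604 to 551 and 562, so its other genes together did not fall. Mean Rab32 went from 126 CPM to 46.0 and 56.4, and the mean secretory sum from 715 to 606 and 605. These sums were not tested.

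The promoter sequences of 5 members are shown because their RNA changed most at a high level (Rab32, Rab9 and Rab31) or because they hold a searched motif (Rab23 and Rab5a). Each is the stretch directly upstream of the annotated gene, 5′ to 3′ on the gene's strand, from RefSeq windows of GRCm38.p6. Capitals mark CACGTG, the E-box core of the CLEAR element found at lysosomal genes, and TGACGTCA, the cyclic AMP response element; lower case throughout means that neither was found.
Rab32, chr10:10558266-10558457, minus strand: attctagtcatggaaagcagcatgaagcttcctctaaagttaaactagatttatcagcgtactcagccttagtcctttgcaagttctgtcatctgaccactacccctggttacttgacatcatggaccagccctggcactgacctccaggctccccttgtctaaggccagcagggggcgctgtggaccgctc
Rab9, chrX:166479868-166480117, minus strand: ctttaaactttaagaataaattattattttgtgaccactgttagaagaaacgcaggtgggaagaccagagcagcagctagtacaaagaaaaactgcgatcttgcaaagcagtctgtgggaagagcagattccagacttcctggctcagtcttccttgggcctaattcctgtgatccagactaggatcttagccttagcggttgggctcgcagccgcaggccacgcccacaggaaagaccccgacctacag
Rab31, chr17:65772753-65773002, minus strand: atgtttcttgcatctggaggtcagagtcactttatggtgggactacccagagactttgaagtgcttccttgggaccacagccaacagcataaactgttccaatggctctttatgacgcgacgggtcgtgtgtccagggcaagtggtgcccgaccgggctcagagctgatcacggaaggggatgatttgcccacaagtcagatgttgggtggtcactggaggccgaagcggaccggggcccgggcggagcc
Rab23, chr1:33719646-33719886, plus strand: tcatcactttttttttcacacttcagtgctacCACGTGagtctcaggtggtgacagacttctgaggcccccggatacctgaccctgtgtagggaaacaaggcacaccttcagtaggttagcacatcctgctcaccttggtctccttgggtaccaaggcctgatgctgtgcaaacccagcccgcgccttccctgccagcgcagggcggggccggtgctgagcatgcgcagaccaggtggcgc
Rab5a, chr17:53478984-53479233, plus strand: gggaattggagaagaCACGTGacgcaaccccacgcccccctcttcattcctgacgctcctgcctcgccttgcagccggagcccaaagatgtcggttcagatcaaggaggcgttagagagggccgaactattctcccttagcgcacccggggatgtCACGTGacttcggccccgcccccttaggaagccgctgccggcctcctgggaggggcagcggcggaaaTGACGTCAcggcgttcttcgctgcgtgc

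RefSeq windows of 250 bases before to 50 after each start, searched on both strands, matched 48 of the 59 Rab genes with 60 windows. CACGTG was in 6 of the 60 (10.0%; Rab23, Rab20, Rab27a, Rab21, Rab24 and Rab5a) and in 7.15% of all 32851 windows. TGACGTCA was in 2 (3.33%; Rab25 and Rab5a) and in 1.79% of all windows. TGACGTGG, the core of the unfolded protein response element, and the ER stress response element were in none of the 60 and in 0.676% and 0.119% of all windows. Rab promoters were richer in G and C, with a median of 60.2% over the upstream bases against 52.4% in all windows. A match is a description of the letters and not of a bound site. Of the 6 with CACGTG, Rab23 and Rab20 rose in both treatments and Rab24 fell in both. Rab5a fell with A1-OVA only, and Rab21 and Rab27a passed in neither, so these genes did not share a direction. The Rab24 calls and the A1 call of Rab23 were each lost in at least 1 leave-one-out fit.

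Per kilobase of exon, untreated MSCs carried most RNA of Rab7, Rab2a, Rab1a, Rab10 and Rab9. Rab7 stood at 150 ± 2.8 CPM per kilobase of exon (RPKM; SD, n = 4), Rab2a at 120 ± 5.31, Rab1a at 99.7 ± 1.65, Rab10 at 83.6 ± 3.81 and Rab9 at 75.5 ± 3.87. These 5 neighbours in the order lay farther apart than their SDs. Rab6a at 57.1 ± 3.01, Rab5c at 56.3 ± 3.39 and Rab32 at 53.9 ± 1.29 RPKM followed and could not be ordered within their SDs. At the low end, Rab27a had 0.408 ± 0.0859 and Rab43 0.278 ± 0.0667 RPKM. With the longest transcript in place of the summed exons, the same 5 genes led, with Rab1a before Rab2a and Rab9 before Rab10. Treatment moved the order at 3 abundant members. Rab9 dropped to 35.7 ± 1.72 RPKM with A1 and 38.5 ± 4.94 with A1-OVA, Rab32 to 19.7 ± 1.35 and 24.1 ± 1.2, while Rab31 went from 44.5 ± 1.88 to 74.2 ± 2.2 and 61.2 ± 2.55.

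**Figure D2:**
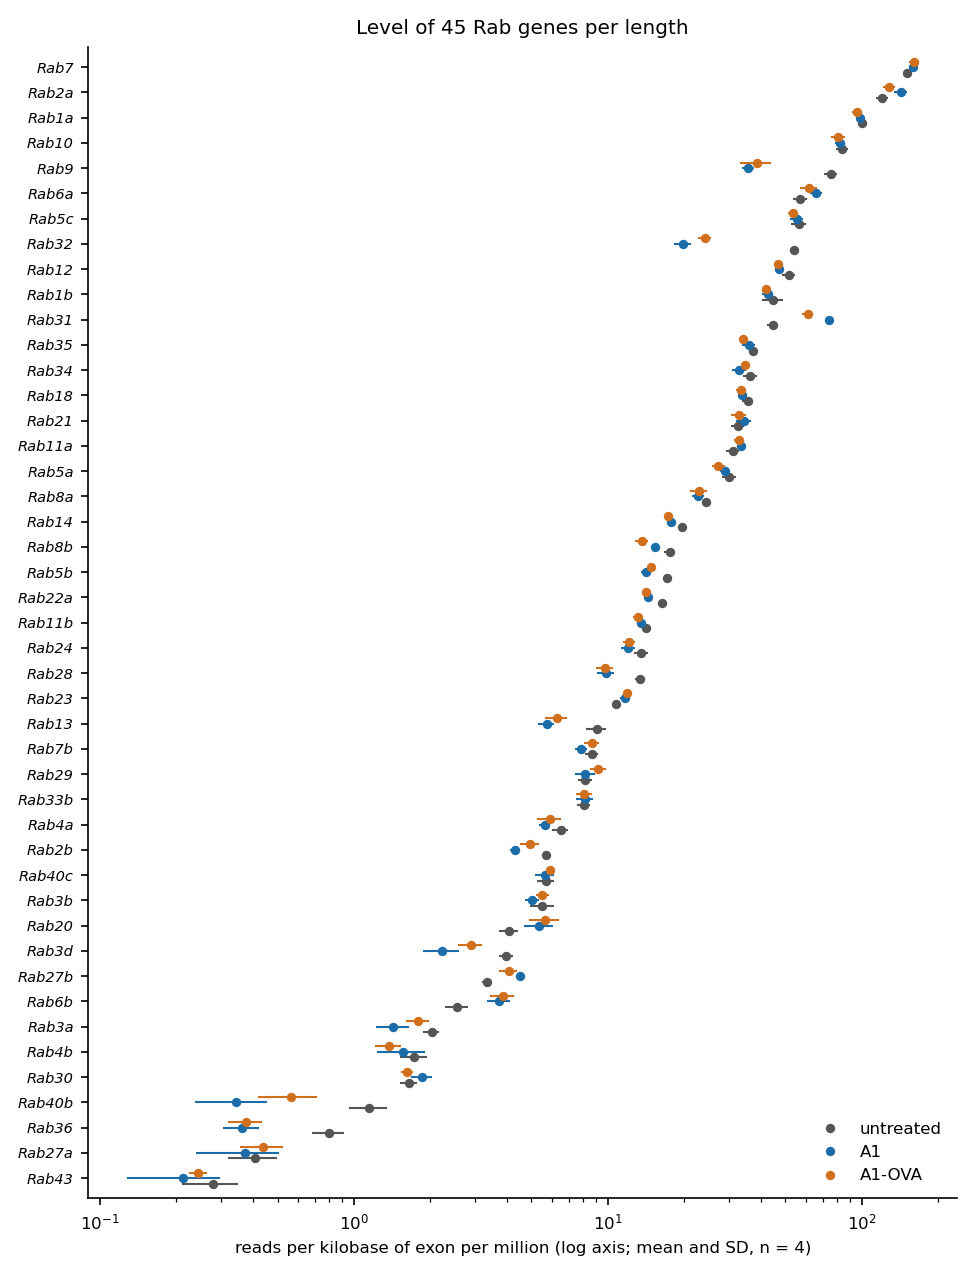
Level of the 45 tested Rab genes in RPKM (log axis), with points for the mean and bars for the SD of 4 libraries in untreated MSCs (grey), A1 (blue) and A1-OVA (orange). Rab7 leads at 150 RPKM in untreated MSCs, and the treated points of Rab9, Rab32, Rab31, Rab40b and Rab36 stand clear of the grey ones.

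The 14 Rab genes that were not tested had little or no RNA. Rab19, Rab38, Rab9b, Rab39 and Rab44 had no count in any library, where a count of 0 allows up to 3. Rab15, Rab17, Rab33a, Rab26 and Rab3c had between 1 and 3 counts at most, and Rab25, Rab37, Rab42 and Rab39b at most 4, 6, 6 and 9. Rab38 is the close relative of Rab32 at lysosome-related organelles and Rab9b that of Rab9, so in both pairs only the member that fell was measurable.

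Among the Rab genes of exocytosis and secretory organelles, 10 of 14 were tested. With A1, 1 rose and 6 fell, 4 of them as DEGs, and with A1-OVA, 1 rose and 4 fell, 2 of them as DEGs. Those that passed were 70% and 50% of the tested ones, beside 62.7% and 57.6% of all tested genes. The DEGs were 40% and 20% of the tested ones, beside 21% and 17.7% of all tested genes. With A1-OVA both shares of this group were thus close to those of all tested genes. The median log2 fold changes of the group were −0.16 and −0.14.

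Rab32 (ENSMUSG00000019832, chr10:10545002-10558265), which directs cargo to lysosome-related organelles and is also found at mitochondria, had 130, 127, 126 and 122 CPM in the untreated libraries, 50.5, 43.1, 45.5 and 44.9 with A1, and 54.9, 56.1, 54.1 and 60.4 with A1-OVA. The 3 groups did not overlap at any point. Its log2 fold change was −1.45 ± 0.049 (SE) with A1 (adjusted p = 2.72e-16), to 36.5% of the untreated level, and −1.16 ± 0.047 with A1-OVA (adjusted p = 7.42e-15), to 44.7%. It was 0.29 ± 0.052 higher with A1-OVA than with A1 (adjusted p = 0.000676). Hps1 and Hps4 were chosen here after their values were seen because they encode the exchange factor of Rab32. Their changes were smaller. On the log2 scale, Hps1 changed by −0.25 (adjusted p = 0.00528) and Hps4 by −0.16 (adjusted p = 0.239) with A1. With A1-OVA they changed by −0.01 and 0.16 (adjusted p = 0.896 and 0.222). Between the treatments, Hps1 was 0.24 higher with A1-OVA (adjusted p = 0.0366), and Hps4 differed by 0.32 (adjusted p = 0.072).

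Rab3d and Rab3a serve regulated exocytosis, Rab3d at secretory granules and Rab3a at vesicles ready to fuse. Rab3d had 17.9, 15.6, 16.4 and 16.8 CPM in untreated MSCs, 11.2, 7.86, 8.63 and 9.8 with A1, and 13.8, 12.2, 11.4 and 11 with A1-OVA. Each treated library was below each untreated one, while the 2 treated groups overlapped. The log2 fold change was −0.83 ± 0.097 with A1 (adjusted p = 2.15e-07) and −0.47 ± 0.091 with A1-OVA (adjusted p = 0.000156), a difference of 0.36 ± 0.103 between the treatments (adjusted p = 0.0258). That last call was lost without A1 replicate 2, A1 replicate 3, A1-OVA replicate 1 or A1-OVA replicate 2, at adjusted p from 0.0535 to 0.0911.

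Rab3a had 4.77, 4.73, 4.33 and 4.2 CPM in untreated MSCs, 3.54, 2.6, 3.51 and 3.05 with A1, and 4.28, 3.48, 4.29 and 3.88 with A1-OVA. The A1 libraries stayed below the untreated ones and the A1-OVA libraries did not. The log2 fold change of −0.50 ± 0.132 with A1 (adjusted p = 0.0023) sat at the edge of a DEG and was −0.42 to −0.49 without untreated replicate 1, untreated replicate 2, A1 replicate 2 or A1 replicate 4. With A1-OVA it was −0.18 ± 0.122 (adjusted p = 0.211; 95% interval −0.44 to 0.07).

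Rab13, which carries cargo to tight junctions and the leading edge, had 22, 21.9, 20.9 and 18.3 CPM in untreated MSCs, 14.2, 13.1, 13.1 and 12.2 with A1, and 16.3, 13.5, 13.6 and 14.4 with A1-OVA. Both treated groups lay below the untreated range. The log2 fold change was −0.66 ± 0.080 (adjusted p = 3.73e-07) and −0.53 ± 0.077 (adjusted p = 5.55e-06). The second fell just short of a DEG, at −0.50, without untreated replicate 1, untreated replicate 2, A1-OVA replicate 2 or A1-OVA replicate 3.

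Rab27b, which docks secretory vesicles and multivesicular bodies at the plasma membrane, was the member of this group that rose. Its 4 values were 36.1, 36.4, 34.0 and 35.8 CPM in untreated MSCs, 48.4, 46.4, 49.5 and 48.7 with A1, and 47.0, 45, 39.8 and 41.8 with A1-OVA, again without overlap with untreated MSCs. The log2 fold change was 0.44 ± 0.054 (adjusted p = 3.75e-07) and 0.28 ± 0.054 (adjusted p = 0.000109). Rab27a, its paralog, ranged from 1.24 to 2.01 CPM in untreated MSCs, 0.84 to 2.03 with A1 and 1.36 to 2.1 with A1-OVA, so the groups overlapped widely. Its 95% interval was −0.63 to 0.38 with A1 and −0.38 to 0.57 with A1-OVA. With A1-OVA this interval includes the change of Rab27b, and with A1 its upper end is just below it.

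The other secretory members moved less. Rab8b, which carries cargo from the Golgi to the cell surface, fell by 0.19 on the log2 scale with A1 (adjusted p = 0.000631) and by 0.36 with A1-OVA (adjusted p = 4.45e-07). It was lower again with A1-OVA than with A1, by −0.16 ± 0.045 (adjusted p = 0.0196), a call lost without A1-OVA replicate 1 or A1-OVA replicate 3 at adjusted p of 0.0537 and 0.0547. Rab8a fell by 0.11 with A1 at adjusted p = 0.0498, which DESeq2 put at 0.0642 and 8 of 12 leave-one-out fits at 0.0569 to 0.121. Rab10, which serves glucose transporter vesicles, had 289, 314, 286 and 286 CPM in untreated MSCs, 279, 295, 301 and 281 with A1 and 299, 293, 270 and 268 with A1-OVA, so the groups overlapped. Its interval was −0.12 to 0.07 with A1 and −0.15 to 0.04 with A1-OVA, and that of Rab3b was −0.29 to 0.02 and −0.15 to 0.15.

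**Figure D3:**
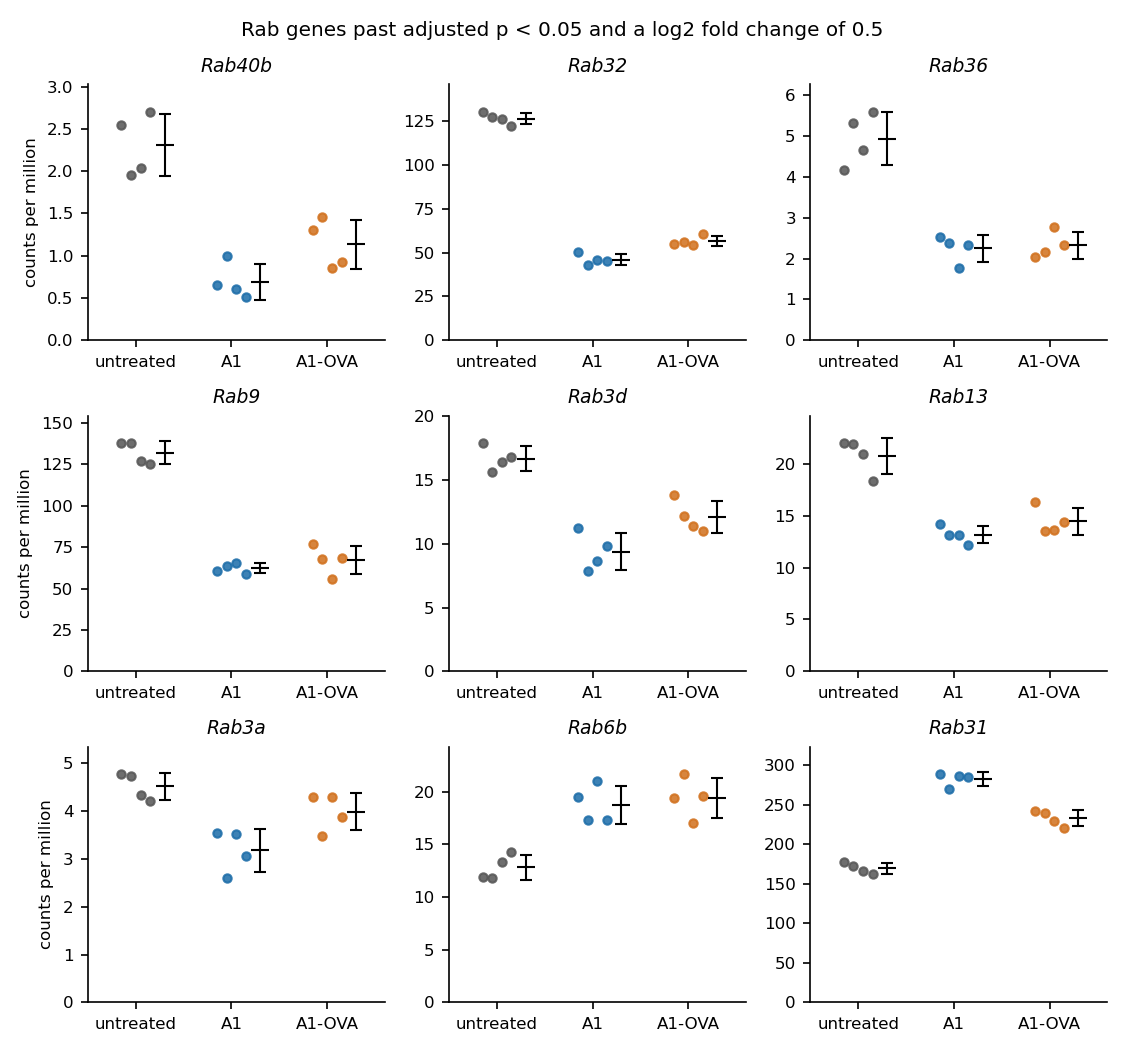
CPM in each of the 4 libraries per group (points) with the mean and SD (black bars) for the 9 Rab genes that were DEGs in at least 1 comparison; each axis starts at 0. The treated libraries of 8 of the panels lie outside the untreated range in both treatments, and for Rab3a only those of A1 do.

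All 9 early endosome members were tested. Rab4a and Rab4b were counted here and not with the recycling genes, although they also serve recycling routes. With A1, 2 rose and 3 fell, with Rab31 as the DEG, and with A1-OVA 2 rose and 3 fell with no DEG. The median log2 fold changes were −0.06 and −0.15. In each treatment 55.6% of these genes passed, beside 62.7% and 57.6% of all tested genes.

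Rab31 (ENSMUSG00000056515, chr17:65651729-65772752), which moves cargo between the trans-Golgi network and endosomes, had 178, 172, 166 and 162 CPM in untreated MSCs, 289, 270, 287 and 285 with A1, and 242, 240, 229 and 221 with A1-OVA. The A1-OVA libraries lay between the other 2 groups and overlapped with neither. Its log2 fold change was 0.74 ± 0.041 with A1 (adjusted p = 9.84e-13), to 167% of the untreated level, and 0.46 ± 0.041 with A1-OVA (adjusted p = 2.94e-09), to 137%. The difference between the treatments was −0.28 ± 0.040 (adjusted p = 9.37e-05). Rab20, which takes part in phagosome maturation, had 5.2, 6.27, 5.51 and 5.71 CPM in untreated MSCs, 6.29, 7.33, 8.47 and 7.77 with A1, and 8.41, 8.99, 6.8 and 7.33 with A1-OVA. The treated libraries were all above the untreated ones, the lowest A1 value by a narrow margin. It rose by 0.39 ± 0.117 (adjusted p = 0.00617) and 0.47 ± 0.114 (adjusted p = 0.00123), and its A1-OVA change passed 0.5 without untreated replicate 2, A1-OVA replicate 3 or A1-OVA replicate 4, at 0.51 to 0.54.

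The Rab5 genes, whose products drive the fusion of endocytic vesicles with early endosomes, did not move as a unit. Rab5b had 72.3, 71.9, 72.6 and 69.8 CPM in untreated MSCs, 56.8, 61.8, 60.1 and 58.9 with A1, and 61.2, 64.1, 60.8 and 62.6 with A1-OVA, below the untreated range in both. It fell by 0.27 on the log2 scale with A1 (adjusted p = 8.44e-06) and by 0.20 with A1-OVA (adjusted p = 0.000209). Rab5a had 153, 171, 157 and 152 CPM in untreated MSCs, 152, 145, 155 and 156 with A1, and 151, 147, 137 and 137 with A1-OVA. Only the A1-OVA libraries stayed below the untreated ones, and the change was −0.06 ± 0.044 with A1 (adjusted p = 0.248) and −0.15 ± 0.044 with A1-OVA (adjusted p = 0.0068), while the difference between the treatments was −0.09 ± 0.044 (adjusted p = 0.207). Rab5c, with 132, 114, 123 and 125 CPM in untreated MSCs, 126, 123, 124 and 113 with A1 and 115, 120, 121 and 112 with A1-OVA, overlapped throughout. Its 95% intervals were −0.12 to 0.07 and −0.17 to 0.02.

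Of the remaining early endosome genes, Rab22a, which sorts cargo out of early endosomes, fell by 0.19 with A1 and by 0.23 with A1-OVA on the log2 scale (adjusted p = 5.71e-05 and 7.24e-06). Rab4a, a Rab of fast recycling, fell by 0.21 with A1 at adjusted p = 0.0409, a call that DESeq2 (0.0839) and 6 of 12 leave-one-out fits (0.0504 to 0.105) did not share. Rab4b had 3.47, 3.78, 3.53 and 2.88 CPM in untreated MSCs, 2.96, 2.9, 3.97 and 2.47 with A1 and 2.9, 2.72, 2.9 and 2.28 with A1-OVA, with overlap in both. Its change was −0.16 ± 0.155 (adjusted p = 0.394) and −0.34 ± 0.155 (adjusted p = 0.0626). Rab21, which traffics integrins, had 95% intervals of −0.02 to 0.18 and −0.09 to 0.12.

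Of 8 genes of late endosomes, lysosomes and autophagosomes, 5 were tested. With A1 none rose and 3 fell, and with A1-OVA 1 rose and 2 fell. Rab9 was the DEG in both. In each treatment 60% of the tested members passed, beside 62.7% and 57.6% of all tested genes.

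Rab9 (ENSMUSG00000079316, chrX:166457253-166479867), which returns mannose 6-phosphate receptors from late endosomes to the Golgi, had 138, 138, 127 and 125 CPM in untreated MSCs, 60.8, 63.9, 65.7 and 59 with A1, and 77.2, 67.6, 56.1 and 68.5 with A1-OVA. The treated groups overlapped with each other and lay far below the untreated libraries. The log2 fold change was −1.08 ± 0.066 with A1 (adjusted p = 4.79e-12), to 47.2% of the untreated level, and −0.97 ± 0.065 with A1-OVA (adjusted p = 2.5e-11), to 50.9%. Rab7, the Rab of late endosome and lysosome fusion and the most abundant per length, had 386, 403, 389 and 392 CPM in untreated MSCs, 409, 402, 427 and 426 with A1, and 434, 423, 404 and 405 with A1-OVA. Every A1-OVA library was above the untreated ones, and 1 A1 library was not. Its change was 0.08 ± 0.037 with A1 (adjusted p = 0.0511; 95% interval 0.01 to 0.16) and 0.09 ± 0.036 with A1-OVA (adjusted p = 0.0484; interval 0.01 to 0.16), and the second call was lost in each of the 8 other fits to all 12 libraries or to the groups compared, at adjusted p from 0.0565 to 0.13, and in 8 of 12 leave-one-out fits at 0.0777 to 0.152. The abundant Rab7 thus sat at the threshold, with at most a small rise.

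Rab24, a Rab of autophagosomes, fell by 0.17 on the log2 scale in both treatments (adjusted p = 0.0185 and 0.0231), although its groups overlapped and both calls were lost without untreated replicate 4 and, respectively, without A1 replicate 4 (0.0624 to 0.0661) and without A1-OVA replicate 2 (0.0745 to 0.081). Rab7b, which acts between late endosomes and the Golgi, fell by 0.13 with A1 at adjusted p = 0.0413, which was 0.0626 by DESeq2 and 0.0501 to 0.14 in 5 of 12 leave-one-out fits, and changed by 0.01 with A1-OVA. Rab29, which recruits the kinase LRRK2, had 12.8, 11.3, 12.2 and 11.5 CPM in untreated MSCs, 12.1, 13.2, 11.1 and 11.4 with A1, and 14.4, 13.4, 12.3 and 13.8 with A1-OVA, with overlap. The 95% interval was −0.17 to 0.17 with A1 and 0.01 to 0.33 with A1-OVA (adjusted p = 0.0713).

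The recycling endosome genes, 5 of 8 tested, held no DEG. With A1, 1 rose and 2 fell, and with A1-OVA 4 fell. Those that passed were 60% and 80% of the tested ones, beside 62.7% and 57.6% of all tested genes. Rab14, which links the Golgi with recycling endosomes, had 269, 268, 264 and 257 CPM in untreated MSCs, 234, 243, 244 and 239 with A1 and 237, 238, 231 and 228 with A1-OVA. Both treated groups were below the untreated range, by 0.14 and 0.18 on the log2 scale (adjusted p = 0.0011 and 0.0001). Rab12, which acts on transferrin receptor turnover, fell by 0.13 and 0.14 (adjusted p = 0.00657 and 0.00264). Rab35, a Rab of fast recycling at the plasma membrane, fell by 0.12 with A1-OVA (adjusted p = 0.013) and had an interval of −0.13 to 0.04 with A1.

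Rab11a and Rab11b are the paralogs of slow recycling, and in neither treatment did both pass. Rab11a had 96.9, 94.8, 93.4 and 86.1 CPM in untreated MSCs, 97.8, 101, 105 and 98.0 with A1, and 97.8, 102, 98.2 and 93.5 with A1-OVA. The A1 libraries were above the untreated ones by less than 1 CPM at the nearest values. It rose by 0.11 ± 0.043 with A1 (adjusted p = 0.0284), and this call was lost with upper-quartile scaling (adjusted p = 0.102) and without untreated replicate 4, A1 replicate 2 or A1 replicate 3 (0.051 to 0.125). Rab11b had 88.1, 83.2, 86.1 and 87.9 CPM in untreated MSCs, 86.1, 82.5, 81.4 and 82.3 with A1, and 76.5, 82.7, 81.5 and 79.3 with A1-OVA. It fell by 0.11 with A1-OVA (adjusted p = 0.0231), a call lost without untreated replicate 1, untreated replicate 4, A1-OVA replicate 1 or A1-OVA replicate 4 at 0.0524 to 0.0832.

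At the ER and Golgi, 12 of 14 genes were tested. With A1, 3 rose and 3 fell, and with A1-OVA 2 rose and 2 fell, with 1 DEG in each direction in both. Those that passed were 50% and 33.3% of the tested ones, beside 62.7% and 57.6% of all tested genes. Rab6b, the brain-enriched form of the Golgi Rab6, had 11.9, 11.8, 13.3 and 14.3 CPM in untreated MSCs, 19.5, 17.3, 21 and 17.3 with A1, and 19.4, 21.7, 17.0 and 19.6 with A1-OVA. Each treated library exceeded each untreated one. It rose by 0.55 ± 0.090 (adjusted p = 1.8e-05) and 0.60 ± 0.088 (adjusted p = 5.26e-06), and without A1 replicate 3 the first was 0.49. Rab36, which acts on Golgi and lysosome positioning, was rare, with 4.15, 5.32, 4.64 and 5.58 CPM in untreated MSCs, 2.53, 2.37, 1.76 and 2.32 with A1, and 2.03, 2.15, 2.77 and 2.34 with A1-OVA. The treated libraries lay well below the untreated ones, at −1.13 ± 0.152 (adjusted p = 1.46e-06) and −1.08 ± 0.146 (adjusted p = 1.88e-06).

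Rab2a, which acts between the ER and Golgi, rose and its paralog Rab2b fell. Rab2a had 257, 271, 247 and 247 CPM in untreated MSCs, 301, 292, 325 and 292 with A1, and 287, 283, 260 and 266 with A1-OVA. The A1 libraries stood above both other groups. It rose by 0.25 ± 0.044 with A1 (adjusted p = 6.34e-05), changed by 0.10 with A1-OVA (adjusted p = 0.0611), and was lower with A1-OVA than with A1 by −0.15 ± 0.044 (adjusted p = 0.0344). The last call was lost without A1 replicate 1, A1 replicate 3, A1-OVA replicate 3 or A1-OVA replicate 4, at 0.0587 to 0.119. Rab2b fell by 0.41 with A1 (adjusted p = 1.24e-05) and by 0.21 with A1-OVA (adjusted p = 0.00678).

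Rab1a, the main Rab of ER-to-Golgi transport, had 385, 383, 376 and 371 CPM in untreated MSCs, 386, 373, 371 and 369 with A1, and 379, 371, 351 and 353 with A1-OVA, with 95% intervals of −0.09 to 0.06 and −0.13 to 0.01. Its paralog Rab1b had intervals of −0.17 to 0.04 and −0.20 to 0.01. Rab6a rose by 0.21 with A1 (adjusted p = 0.000581). With A1-OVA it was 0.12 higher at adjusted p = 0.0446, a call lost by DESeq2 (0.0709), under 5 more settings and in 8 of 12 leave-one-out fits (0.0549 to 0.141). Rab34, a Golgi Rab of lysosome positioning, fell by 0.14 with A1 (adjusted p = 0.0125), and this was lost without A1 replicate 2 at 0.0635. Rab18, Rab30, Rab33b and Rab43 passed in neither comparison.

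In the group of cilium and other roles, 4 of 6 genes were tested, and 1 rose and 2 fell in both treatments. In each treatment 75% of the tested members passed, beside 62.7% and 57.6% of all tested genes. Rab40b, which carries a SOCS box and joins ubiquitin ligase complexes, had 2.54, 1.95, 2.04 and 2.7 CPM in untreated MSCs, 0.651, 0.993, 0.611 and 0.508 with A1, and 1.3, 1.46, 0.858 and 0.924 with A1-OVA. Its log2 fold change was −1.73 ± 0.243 with A1 (adjusted p = 2.53e-06) and −1.02 ± 0.209 with A1-OVA (adjusted p = 0.000273). The difference between the treatments was wide in error, 0.71 with a 95% interval of 0.12 to 1.31 (adjusted p = 0.108), and the low counts behind this gene limit its precision. Rab28, which works at the base of the cilium, fell by 0.45 and 0.47 (adjusted p = 5.02e-07 and 2.49e-07), just short of a DEG, and passed 0.5 with A1-OVA without A1-OVA replicate 1, at −0.52. Rab23, a ciliary inhibitor of Hedgehog signalling, had 88.9, 89.4, 88.4 and 90.8 CPM in untreated MSCs, 98.3, 93.4, 101 and 94.9 with A1 and 101, 101, 97.6 and 96.1 with A1-OVA. It rose by 0.12 and 0.14 (adjusted p = 0.0104 and 0.00255), the first lost without A1 replicate 3 at 0.0598.

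Because subfamily members share a number and often a compartment, the share of each member in the per-length RNA of its subfamily was followed. These shares are a description and were not tested. Rab2b made up 4.31% to 4.67% of the Rab2 pair in untreated MSCs, 2.65% to 3.15% with A1 and 3.61% to 3.88% with A1-OVA, so the 3 groups stood apart. Rab3d gave way to Rab3b within Rab3. The share of Rab3d was 33.6% to 36.4% in untreated MSCs, 23.7% to 28.2% with A1 and 25.8% to 30.7% with A1-OVA, and that of Rab3b 46.4% to 49.5%, 55.0% to 61.6% and 51.3% to 57.0%. The rise of Rab3b is one of share, since its own level did not pass the test.

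Rab40b dropped from 15.4% to 18.5% of the Rab40 pair to 3.88% to 8.45% with A1 and 6.81% to 10.6% with A1-OVA, with Rab40c, the other member, having 95% intervals of −0.15 to 0.14 and −0.08 to 0.20 on the log2 scale. Rab8b made up 41.2% to 42.6% of Rab8 in untreated MSCs, 39.1% to 41.4% with A1 and 34.7% to 39.0% with A1-OVA, so that only the A1-OVA libraries stood apart. Rab6b stayed a minor form next to Rab6a, with 3.68% to 4.84%, 5.06% to 5.62% and 5.26% to 6.43%. Rab5c remained the main Rab5 form, from 51.2% to 57.5% by summed exons and from 43.5% to 49.8% by the longest transcript.

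**Figure D4:**
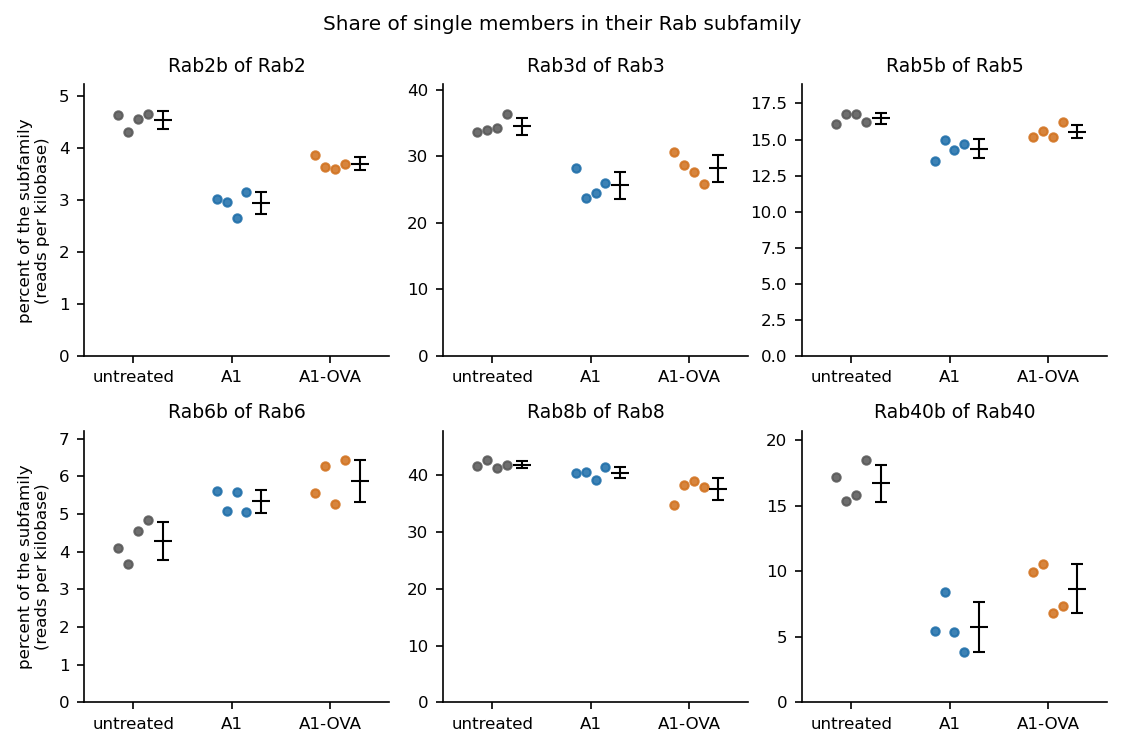
Share of 1 member in the per-length RNA of its Rab subfamily, in percent, for each of the 4 libraries per group (points) with the mean and SD (black bars); each axis starts at 0. Rab2b shows 3 separate groups, Rab3d and Rab40b are lower in both treatments, Rab6b is higher in both, Rab5b is lowest with A1, and Rab8b stands apart with A1-OVA.

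The genes that load, switch and read Rab proteins were described by lists of 151 genes, 130 of them tested. With A1, 28 rose and 51 fell, and with A1-OVA 28 rose and 37 fell. They made up 60.8% and 50.0% of those tested, beside 62.7% and 57.6% of all tested genes. By direction, 31.7% of all tested genes rose and 31.1% fell with A1, and 29.7% rose and 27.9% fell with A1-OVA. Between the treatments, 21 were higher with A1-OVA than with A1 and 4 lower, together 19.2% against 12.9% of all tested genes. By direction, 6.05% of all tested genes were higher and 6.81% lower. The 21 became 11 without A1 replicate 1, 10 without A1 replicate 3 and 12 without A1-OVA replicate 4, which also left 2 of the 4.

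Among the 9 genes of prenylation and membrane cycling, the escort proteins parted. Chml, Rab escort protein 2, went from 38.2 to 41.7 CPM in untreated MSCs to 69.9 to 76.7 with A1 and 62.8 to 69.1 with A1-OVA, a log2 fold change of 0.87 ± 0.049 (adjusted p = 1.49e-12) and 0.69 ± 0.049 (adjusted p = 7.4e-11). Chm, Rab escort protein 1, fell by 0.17 with A1 (adjusted p = 0.00623) and had −0.08 with A1-OVA (adjusted p = 0.184). Rabggtb, the catalytic subunit of the prenyltransferase, rose by 0.24 and 0.32 (adjusted p = 1.77e-05 and 3.01e-07), while its partner Rabggta rose only with A1-OVA, by 0.37 (adjusted p = 0.00113), a difference between treatments of 0.30 (adjusted p = 0.0316). Rabif, a Rab chaperone, rose by 0.27 and 0.20 (adjusted p = 6.96e-05 and 0.00141). Gdi2, an abundant dissociation inhibitor at 646 to 680 CPM in untreated MSCs, changed by −0.03 and −0.04 (adjusted p = 0.532 and 0.307). Ggps1, which makes the lipid, and Rabac1, a displacement factor, passed in neither.

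Of 46 tested exchange factors, 8 rose and 19 fell with A1, and 9 rose and 11 fell with A1-OVA. Those that passed were 58.7% and 43.5%, beside 62.7% and 57.6% of all tested genes. Rin1, which loads Rab5 proteins downstream of Ras, rose by 1.16 ± 0.051 (adjusted p = 2.56e-14) and 1.20 ± 0.051 (adjusted p = 1.47e-14). Its relative Rin2 rose by 0.80 and 0.35 (adjusted p = 4.13e-13 and 3.38e-07) and was lower with A1-OVA than with A1 by −0.45 ± 0.041 (adjusted p = 3.64e-07). Rin3, named after its values were seen and rarer at 1.67 to 2.63 CPM in untreated MSCs, fell by 0.53 with A1 (adjusted p = 0.0331) and had −0.26 with A1-OVA (adjusted p = 0.256). Rab3ip, known as Rabin8, which loads Rab8 proteins, rose by 0.87 and 0.95 (adjusted p = 5.64e-11 and 1.1e-11), whereas Rab3il1, its close relative, fell by 0.92 and 0.70 (adjusted p = 7.27e-08 and 2.14e-06). Trappc9, a TRAPP subunit, and Vps9d1 fell by 0.56 and 0.54 with A1 (adjusted p = 2.23e-07 and 0.000916).

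Of 31 tested GTPase-activating proteins, 7 rose and 12 fell with A1, and 5 rose and 12 fell with A1-OVA. Those that passed were 61.3% and 54.8%, beside 62.7% and 57.6% of all tested genes. Tbc1d2b fell by 0.84 and 0.74 (adjusted p = 2.24e-14 and 1.54e-13), Evi5l by 0.88 and 0.67 (adjusted p = 4.79e-10 and 2.35e-08), and Rabgap1l by 0.50 and 0.32 (adjusted p = 2.06e-09 and 1.43e-06). Tbc1d2, known as Armus, which switches off Rab7, was rare at 1.38 to 2.1 CPM in untreated MSCs and had 2.21 to 2.67 with A1 and 3.26 to 4.42 with A1-OVA. It rose by 0.55 ± 0.180 (adjusted p = 0.0111) and 1.22 ± 0.159 (adjusted p = 9.84e-07), and the difference between the treatments, 0.67 ± 0.153 (adjusted p = 0.00581), made it the DEG of that comparison among the 130 genes. Tbc1d16 rose by 0.50 with A1-OVA (adjusted p = 0.00105) and by 0.42 with A1 (adjusted p = 0.00501).

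Of 25 tested endosomal effectors, 5 rose and 10 fell with A1, and 5 rose and 8 fell with A1-OVA. Those that passed were 60.0% and 52.0%, beside 62.7% and 57.6% of all tested genes. Appl2, a Rab5 effector of early signalling endosomes, fell by 1.14 ± 0.074 (adjusted p = 1.54e-11) and by 0.77 ± 0.070 (adjusted p = 5.41e-09), and was 0.37 ± 0.078 higher with A1-OVA than with A1 (adjusted p = 0.00299). Osbpl1a, the Rab7 effector ORP1L that senses cholesterol on late endosomes, fell by 0.61 and 0.52 (adjusted p = 3.46e-11 and 4.37e-10). Micall1, which shapes recycling tubules, rose by 0.61 and 0.62 (adjusted p = 5.28e-09 and 4.45e-09).

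Of 19 tested Golgi and secretory effectors, 5 rose and 8 fell with A1, and 5 rose and 5 fell with A1-OVA. Those that passed were 68.4% and 52.6%, beside 62.7% and 57.6% of all tested genes. The paralogs Ehbp1l1 and Ehbp1, which bind Rab8 and Rab10 proteins, moved in opposite directions. Ehbp1l1 rose by 0.83 and 0.91 (adjusted p = 3.57e-14 and 7.89e-15), and Ehbp1 fell by 0.63 and 0.55 (adjusted p = 3.21e-09 and 2.21e-08). Sytl5, a Rab27 effector, fell by 0.63 and 0.26 (adjusted p = 3.54e-05 and 0.035).

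**Figure D5:**
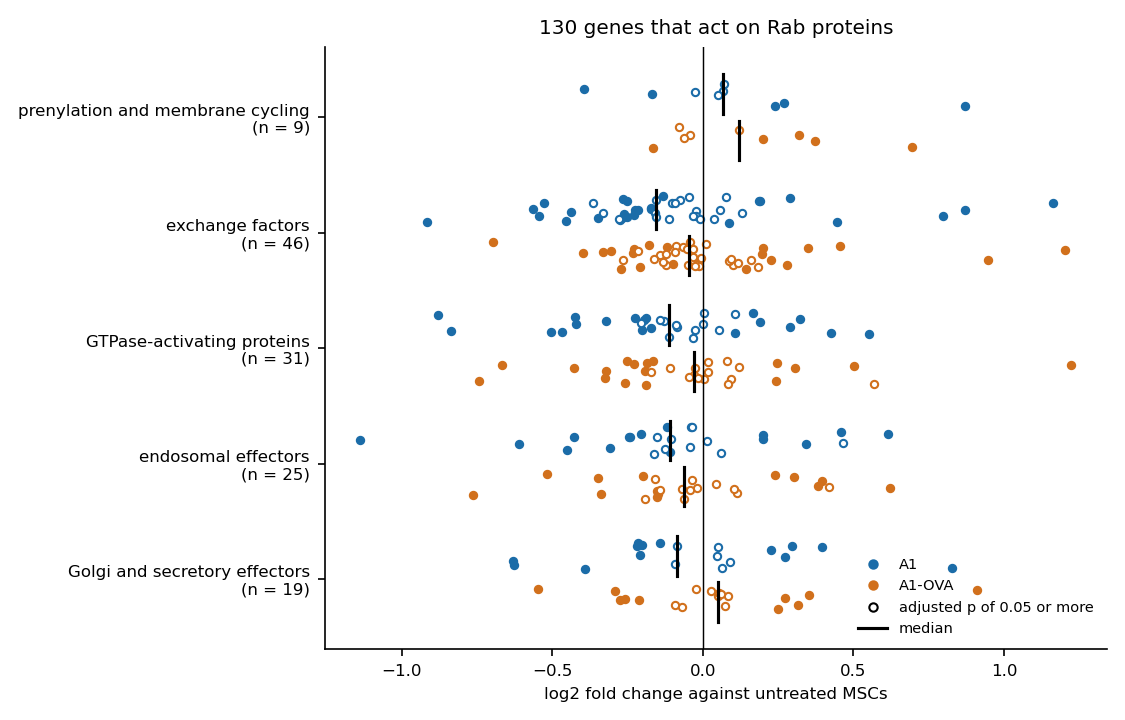
Log2 fold change against untreated MSCs of the 130 tested genes that act on Rab proteins, in 5 lists, for A1 (blue) and A1-OVA (orange), with filled points for an adjusted p below 0.05 and black bars for the median of each list. Rin1 lies to the right among the exchange factors, Tbc1d2 with A1-OVA to the right among the GTPase-activating proteins, and Appl2 to the left among the endosomal effectors.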

How the data were processed

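Members, compartment lists, machinery lists and motifs were chosen with earlier results of these data known. The deposited file holds raw counts per gene; per the labels and the study's methods, strand-specific paired-end reads were aligned to GRCm38 with STAR (2.7) and counted by the authors with featureCounts (2.0, strand option), without pooling. How reads shared by near-identical copies were treated is not given in the sources used here; the 4 annotated Rab pseudogene rows held at most 20 counts. Gene IDs were matched to GENCODE for GRCm38 (99.53%) and protein-coding genes kept. Counts were tested with edgeR's quasi-likelihood test (4.0.16, R 4.3.3; filterByExpr, TMM, 12 libraries in 3 groups, no covariate), with Benjamini-Hochberg adjustment over 11314 genes. DESeq2 (1.42.0), other scalings, filters, gene sets, a replicate block and leave-one-out fits were alternatives. CPM uses TMM library sizes. On simulated A1 counts (11217 genes), 95% of 200 changed genes were recovered and 14 unchanged genes were called. Replicates differed beyond sampling noise (chi-square per degree of freedom 2.18 to 9). Values are named for DEGs, the 5 highest per length, Rab5, Rab7, Rab11 and Rab27a genes and the extremes of each compartment; machinery genes where DEGs, up to 3 per direction and list, plus the cycling genes, of which 1 is not reported here. Replicate numbers do not mark shared samples in the labels.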

Additional observations from a re-analysis of the deposited data

Results flagged for a closer look

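In the 75 groups formed by 25 named Rab genes and 3 treatments, 1 library stood apart from the other 3 of its group. For Rab10, untreated replicate 2 had 314 CPM, and the other untreated libraries had 286 to 289, a gap of 0.871 of the group's range. Chance alone gives about 1 such gap in 20 groups.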

How the results depend on the processing

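With a log2 threshold of 1 in place of 0.5, 4 Rab genes were DEGs with A1 and 3 with A1-OVA (6.58% and 5.21% of all tested genes). Leaving out 1 library at a time gave 6 to 10 higher and 15 to 19 lower Rab genes and 8 to 9 DEGs with A1; 5 to 9, 16 to 20 and 5 to 8 with A1-OVA; and 1 to 4, 1 to 3 and 0 to 0 between the treatments. For the machinery it gave 26 to 31 higher and 45 to 54 lower with A1, 27 to 30 and 32 to 41 with A1-OVA, and 10 to 22 and 2 to 4 between the treatments. Upper-quartile scaling added Rab1a, Rab1b, Rab4b, Rab8a and Rab18 to the genes lower with A1-OVA and removed Rab6a and Rab7 from those higher. Among the named Rab genes, direction turned only where the 95% interval spans 0. Rab29 with A1 was 0.0001, and −0.0293 with upper-quartile scaling, −0.0019 with RLE size factors, −0.002 by DESeq2, −0.003 without a filter, −0.0047 with at least 10 counts in every sample, −0.0073 over all genes and −0.0006 with the replicate block. Rab7 between the treatments was 0.0024, and −0.0022 with RLE size factors, −0.0023 by DESeq2, −0.0001 without a filter and −0.0022 over all genes. Over the leave-one-out fits, signs turned with A1 for Rab10 (−0.0518 to 0.0081), Rab27a (−0.3442 to 0.0515), Rab29 (−0.0489 to 0.0351) and Rab5c (−0.0599 to 0.0112), with A1-OVA for Rab27a (−0.0096 to 0.2289), and between the treatments for Rab20 (−0.0008 to 0.1427), Rab36 (−0.0512 to 0.1096), Rab6b (−0.0107 to 0.1082) and Rab7 (−0.0182 to 0.0171). The cause was not tested. Same-numbered libraries deviated together no more than others (mean correlation 0.021 over 12 pairs, −0.007 over 36 pairs of different numbers), so the numbers were not taken as pairs. With the replicate block there were 8 higher and 18 lower Rab genes with A1, 6 and 18 with A1-OVA, and 3 and 3 between the treatments. For the upper-quartile, replicate block and leave-one-out fits, the share of all tested genes called is not given here. With 4 libraries per group, low genes such as Rab27a, Rab43 and Rab40b keep wide intervals.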
